A study of Mus musculus with 7 samples.

Results

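The replication-dependent histone genes are the clustered genes whose mouse names begin with Hist1h, Hist2h, Hist3h or Hist4h, and they were taken by those name starts from the gene assigned to each listed ATAC-seq peak. The authors' deposited table named 19 of them, at 21 of its 6395 peaks, among 5130 gene names in all. RefSeq (GRCm38.p6, the assembly also called mm10) lists 70 such genes, 67 of them protein coding, so 51 had no row under their own name.

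Open chromatin was mapped by ATAC-seq, where a transposase inserts adapters into accessible DNA. The cells were splenic T follicular helper (Tfh) cells, the CD4 T cells that drive germinal centre B cell responses, and the sort kept CD4+CD44+ cells that were GITR- and PSGL-1lo with high CXCR5 and PD-1. The 4 anti-IFNAR1 samples came from mice given an antibody against a chain of the type I interferon receptor, and the 3 control IgG samples from mice given anti-rat IgG. Both groups were B6.Sle1.Yaa mice aged 5 months, a strain that carries the Sle1 locus and the Yaa mutation and develops a lupus-like disease, and both received their antibody 2 times a week for 4 weeks. The treatment label spells the target IFNA1 and the series title IFNAR1.

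The core histones H2A, H2B, H3 and H4 form the octamer around which DNA is wrapped, and the linker histone H1 binds where the DNA enters and leaves it. Their replication-dependent genes are switched on in S phase to package new DNA, lack introns as a rule, and make mRNAs that end in a stem loop in place of a poly(A) tail. Many H2A and H2B genes lie head to head and share 1 stretch of DNA as the promoter of both.

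Each listed peak is 1 comparison of anti-IFNAR1 coverage with a control IgG background. The list holds no value of a single sample, so the spread between mice is not part of any value given here, and sites that were higher on the control IgG side were not analysed here. Pileup is a value of the authors' deposited table, the anti-IFNAR1 coverage at the summit, in fragments scaled down to the control depth, and the fold enrichment, also theirs, is (pileup + 1) over (control background + 1). Every pileup was a whole multiple of 0.283 (tolerance 0.005), so the unscaled anti-IFNAR1 fragments could be recovered. The anti-IFNAR1 side was 3.54 times as deep as the control side. All members were listed because they were higher on the anti-IFNAR1 side at q below 0.05, so that direction is not a result about them. In these bulk samples, more cells with an open site and a more open site in each cell cannot be told apart.

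Promoter sequences of 300 bases, from 250 before to 50 after the annotated start, were read from RefSeq for 62 of the 70 genes. The first set shows shared H2A and H2B promoters. Hist1h2ak (chr13:21753863-21754162, minus strand) and Hist1h2ae (chr13:23571171-23571470, minus strand) carried the highest folds among the member peaks, and Hist1h2ah (chr13:22035594-22035893, minus strand) had no listed peak. Capitals mark 4 motifs found on either strand. TATAAA is the core of the TATA box, where transcription initiation factors bind. CCAAT, which reads ATTGG on the other strand, is the site of the factor NF-Y. TTTGCAT, which reads ATGCAAA on the other strand, is the core of the octamer bound by Oct factors. AAACACA is the H1 box of linker histone genes.
Hist1h2ak: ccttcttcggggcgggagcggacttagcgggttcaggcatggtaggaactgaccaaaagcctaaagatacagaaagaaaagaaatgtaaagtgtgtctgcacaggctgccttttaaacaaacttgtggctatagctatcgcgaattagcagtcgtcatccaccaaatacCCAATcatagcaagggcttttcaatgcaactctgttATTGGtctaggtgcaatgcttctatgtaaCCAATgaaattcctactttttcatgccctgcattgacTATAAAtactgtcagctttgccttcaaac
Hist1h2ae: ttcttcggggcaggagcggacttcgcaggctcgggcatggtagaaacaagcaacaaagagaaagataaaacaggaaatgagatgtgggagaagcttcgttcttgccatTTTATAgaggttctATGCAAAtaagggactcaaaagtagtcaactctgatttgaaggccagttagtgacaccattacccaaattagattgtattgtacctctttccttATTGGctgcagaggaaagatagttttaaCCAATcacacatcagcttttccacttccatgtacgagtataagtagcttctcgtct
Hist1h2ah: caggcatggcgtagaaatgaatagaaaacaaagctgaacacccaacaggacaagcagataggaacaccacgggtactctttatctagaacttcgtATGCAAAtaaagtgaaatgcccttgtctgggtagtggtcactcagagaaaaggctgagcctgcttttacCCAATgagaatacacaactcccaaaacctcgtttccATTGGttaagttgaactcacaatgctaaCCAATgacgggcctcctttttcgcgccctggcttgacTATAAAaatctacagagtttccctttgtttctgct
All 3 held CCAAT on both strands, and the octamer core stood in Hist1h2ae, which had a listed peak, and in Hist1h2ah, which had none.

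The second set shows a linker histone promoter and the H4 promoter under the peak of highest fold at any histone gene. Hist1h1c (chr13:23738557-23738856, plus strand) holds 1 H1 box upstream of 1 CCAAT box, and its listed peak begins just downstream of this window. Hist1h4h (chr13:23530794-23531093, plus strand) holds none of the 4 motifs, so no base is in capitals.
Hist1h1c: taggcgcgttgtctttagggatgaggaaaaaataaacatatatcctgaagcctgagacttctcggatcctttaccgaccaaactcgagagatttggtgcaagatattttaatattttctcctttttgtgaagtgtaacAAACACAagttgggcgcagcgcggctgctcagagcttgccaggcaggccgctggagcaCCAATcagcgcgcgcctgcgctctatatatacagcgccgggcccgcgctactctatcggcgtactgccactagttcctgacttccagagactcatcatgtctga
Hist1h4h: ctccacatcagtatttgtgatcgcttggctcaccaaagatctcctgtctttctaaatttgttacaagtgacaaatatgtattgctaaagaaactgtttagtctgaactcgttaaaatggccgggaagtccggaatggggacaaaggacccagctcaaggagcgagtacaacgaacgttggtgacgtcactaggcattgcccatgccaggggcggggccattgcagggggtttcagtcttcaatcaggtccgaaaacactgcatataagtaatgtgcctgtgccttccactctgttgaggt

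The 21 member peaks were of ordinary strength for this list. Their median fold was 4.95 (range 2.91 to 7.99), against 4.74 over all 6395 listed peaks, and 12 of the 21 lay above that median. Their median pileup was 13 (range 5.65 to 24.9), against 11.6 over all peaks and 13 over the 4632 listed peaks at a transcription start site (TSS). In unscaled counts, 20 to 88 anti-IFNAR1 fragments covered a member summit, with a median of 46 against 41 over all peaks.

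The control IgG side was covered at or within 1 kb of these sites as well. The control background had a median of 1.89 fragments at member peaks, 1.49 at all listed peaks and 2 at listed TSS peaks. It reached at least 1 fragment at 19 of the 21 member peaks (90.5%), against 68.4% of all peaks and 75.3% of listed TSS peaks. It was counted at the site itself for 11 member peaks and in the 1 kb window around the site for the other 10. The site value was known for 13 member peaks and was 0 for Hist1h1d and Hist1h4n.

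**Figure D1:**
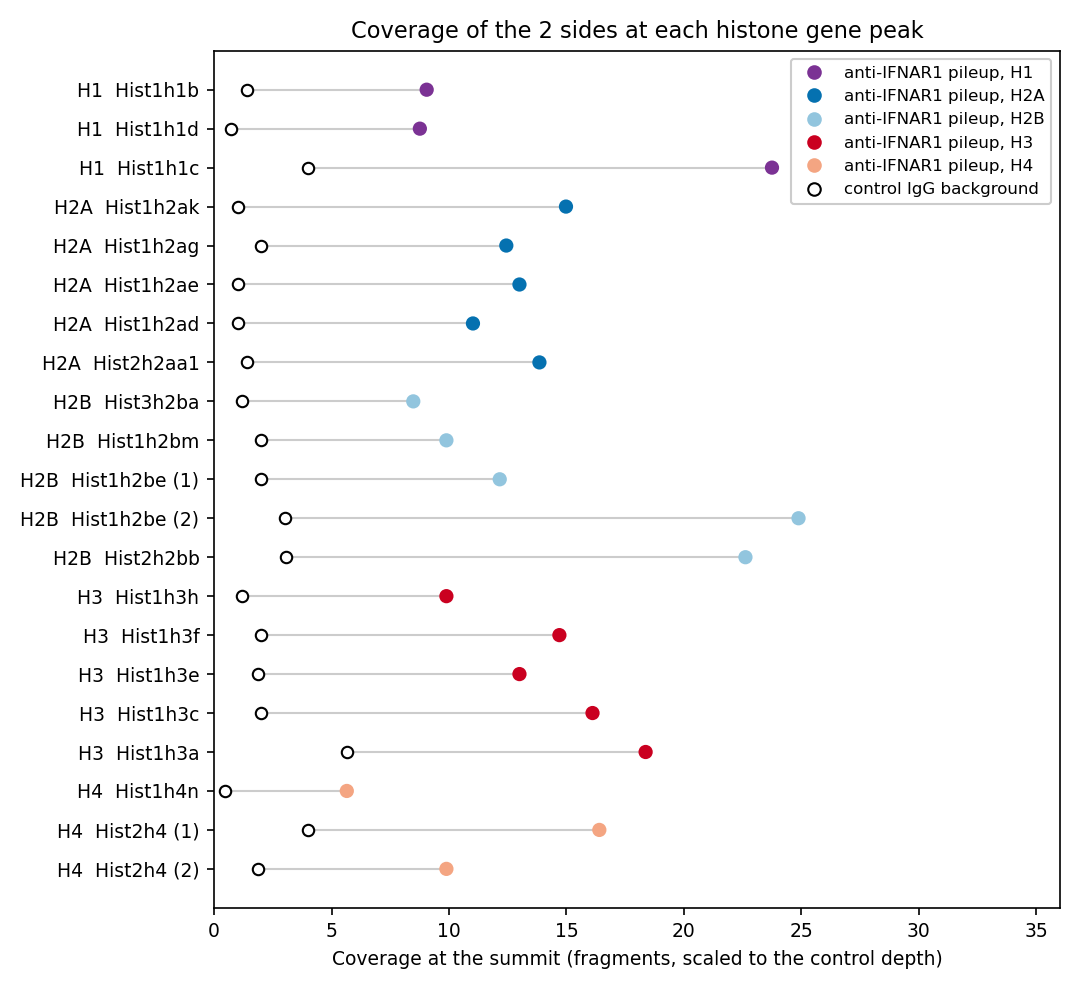
Coverage at the summit (fragments scaled to the control depth, x axis) of the 21 histone gene peaks in rows by histone type; filled points are the anti-IFNAR1 pileup and open points the control IgG background, each 1 pooled value. Pileup ran between 5.65 at Hist1h4n and 24.9 at the second Hist1h2be peak, and the background between 0.472 and 5.66.

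Linker histone H1 genes had 3 listed peaks, and all 3 summits lay in the body of the gene, toward its 3′ end. Hist1h1c had the tallest, with a pileup of 23.8 on the anti-IFNAR1 side against a control background of 4 fragments counted at the site, a fold of 4.95 (q = 8.14e-08). That peak spanned chr13:23738893-23740060 and covered 88.1% of the gene. Hist1h1d (chr13:23555129-23556109) had a pileup of 8.76 on the anti-IFNAR1 side, against 0 control fragments at the site and a 1 kb background of 0.708, a fold of 5.72 (q = 0.000143). Hist1h1b (chr13:21779845-21780173) had a pileup of 9.05 against a control background of 1.42, a fold of 4.16, and the file placed it at the transcription termination site (TTS). The summits lay 560, 725 and 727 bases downstream of the starts of Hist1h1c, Hist1h1d and Hist1h1b.

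H2A genes had 5 peaks under their own names, with a median fold of 6.15. Of these 5, 4 lay at a promoter shared with an H2B gene, and at 3 the histone start nearest the summit was an H2B start, so the values belong to both types. Hist1h2ak (chr13:21753657-21754465) stood first, with a pileup of 15.0 against a control background of 1, a fold of 7.99 (q = 4.12e-09). Hist1h2ae (chr13:23570868-23571444) had a pileup of 13 against a control background of 1, a fold of 7.0. These control values are single fragments, so the ratios are loosely bounded. The depth-scaled ratio at Hist1h2ak was 15.0 with an exact 95% interval of 2.58 to 603, which covers counting error only and not the selection of the site by its height.

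The other H2A peaks had folds of 6.15 at Hist2h2aa1, 6.01 at Hist1h2ad and 4.48 at Hist1h2ag. Hist1h2ad (chr13:23573946-23574322) had a pileup of 11 against a control background of 1, and Hist1h2ag (chr13:22043141-22043742) had 12.4 against 2. Hist2h2aa1 (chr3:96245106-96245424) had a pileup of 13.9 against a control background of 1.42. Of the 5 H2A peaks, only the Hist2h2aa1 peak lay over no annotated histone gene, just upstream of its start.

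H2B genes had 5 listed peaks at 4 genes, with a median fold of 4.39. The second Hist1h2be peak (chr13:23620949-23622506) was the tallest of all member peaks, with a pileup of 24.9 against 3 control fragments at the site, a fold of 6.47 (q = 7.83e-11). It also covered 93.4% of Hist1h1e, a linker histone gene with no row of its own. The other Hist1h2be peak (chr13:23585426-23585916), with a pileup of 12.2 against a control background of 2, was placed by the file in coding exon 2, 35209 bases from the start it used. RefSeq annotates a second start of Hist1h2be, and the summit of that peak lay 187 bases downstream of it.

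Hist2h2bb (chr3:96268848-96269497) had a pileup of 22.6 against a control background of 3.07, a fold of 5.81, and its peak lay over the H3 gene Hist2h3b. Hist3h2ba (chr11:58948355-58949133) had a pileup of 8.48 against 1.18, a fold of 4.35. Hist1h2bm (chr13:21721665-21722273) had 9.89 against 2, a fold of 3.63, and its q of 0.0352 was the largest of the members.

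H3 genes had 5 listed peaks, with a median fold of 5.00. Hist1h3c (chr13:23745618-23746534) had a pileup of 16.1 against 2 control fragments at the site, a fold of 5.70. That peak lay over no annotated histone gene, and the histone start nearest its summit was that of the H2B gene Hist1h2bb, 299 bases away. Hist1h3f (chr13:23543520-23544315) had 14.7 against 2, a fold of 5.23, and Hist1h3e (chr13:23562057-23562364) had 13 against 1.89, a fold of 4.85. Hist1h3a had both the widest member peak, 2013 bases (chr13:23761610-23763623), and the lowest member fold, 2.91. Its pileup of 18.4 stood against the highest control background of the members, 5.66. The peak covered all of Hist1h3a, but the histone start nearest its summit was that of the H4 gene Hist1h4a, 410 bases away. The peak named Hist1h3h (chr13:21716079-21717383) had 9.89 against 1.18, a fold of 5.00, but lay over 2 other histone genes and not over Hist1h3h. The histone start nearest its summit was that of the H2B gene Hist1h2bl. The values of the Hist1h3c, Hist1h3a and Hist1h3h peaks, and so the median, are therefore not those of H3 genes alone.

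H4 genes had 3 listed peaks under their own names, with a median fold of 3.77. Hist2h4 had 2 of them, one inside the gene (chr3:96262421-96263266) with 16.4 against a control background of 4, which gave a fold of 3.48. Its other peak lay upstream (chr3:96263613-96263867), with 9.89 against 1.89 and a fold of 3.77. Hist1h4n (chr13:21831653-21831941) had the lowest member pileup, 5.65, against 0 control fragments at the site and a 1 kb background of 0.472, a fold of 4.52, and the file placed it at the TTS. The summits of the Hist1h4n peak and of the Hist2h4 peak inside the gene lay 520 and 266 bases downstream of the starts. A further 4 H4 genes lay at peaks of other names, with folds between 2.91 at Hist1h4a and 12.0 at Hist1h4h. With 3 to 5 named peaks per type and no replicate values, differences between types were not tested.

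**Figure D2:**
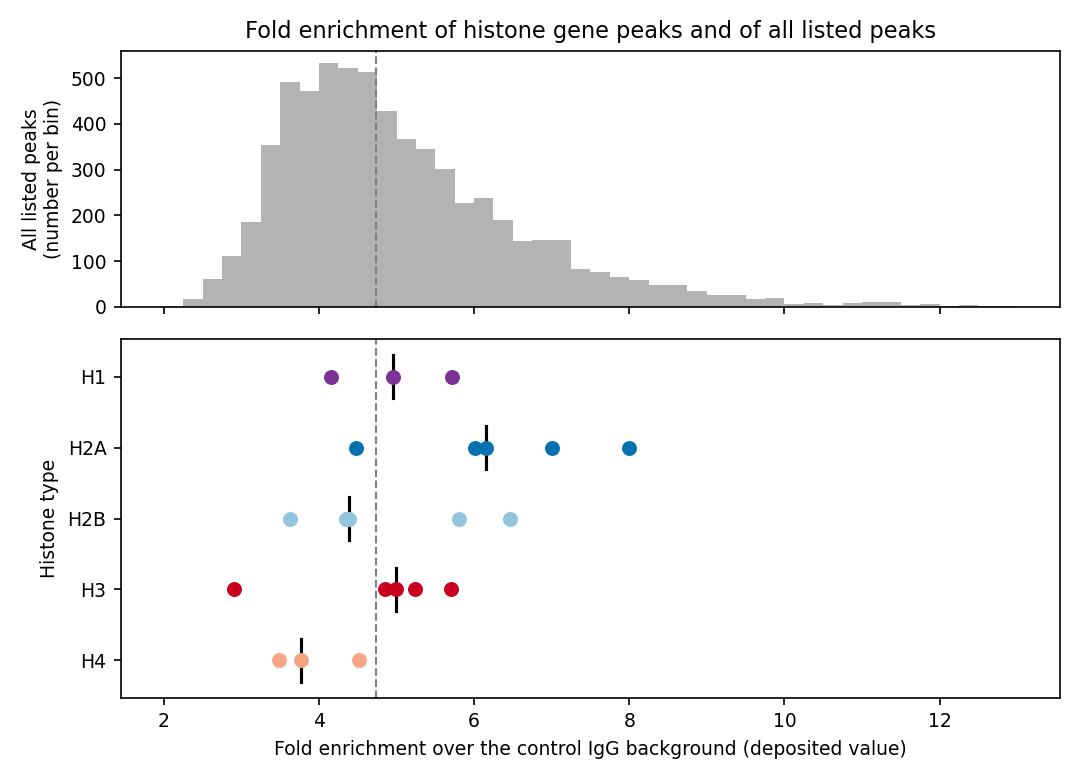
Fold enrichment over the control IgG background (x axis, deposited values) of all 6395 listed peaks as a histogram (upper panel, peaks per bin) and of the histone gene peaks by type (lower panel; points are peaks named for a gene of that type, black bars medians, the dashed line the median of all peaks, 4.74). Named H2A peaks lie mostly right of the line, with a median of 6.15, and named H4 peaks left of it, with a median of 3.77; the peak over the H4 gene Hist1h4h, with a fold of 12.0 under another name, is not among the points.

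In the file's own annotation, 18 of the 21 member peaks (85.7%, Wilson 95% interval 65.4 to 95) were TSS peaks, against 72.4% of all listed peaks. The other 3 were the TTS peaks of Hist1h1b and Hist1h4n and the exon peak of Hist1h2be. Histone genes are so short that a peak at the start also reaches the coding sequence, and 18 member peaks overlapped at least 1 histone gene. Member peaks had a median length of 649 bases (range 254 to 2013), against 539 over all peaks.

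**Figure D3:**
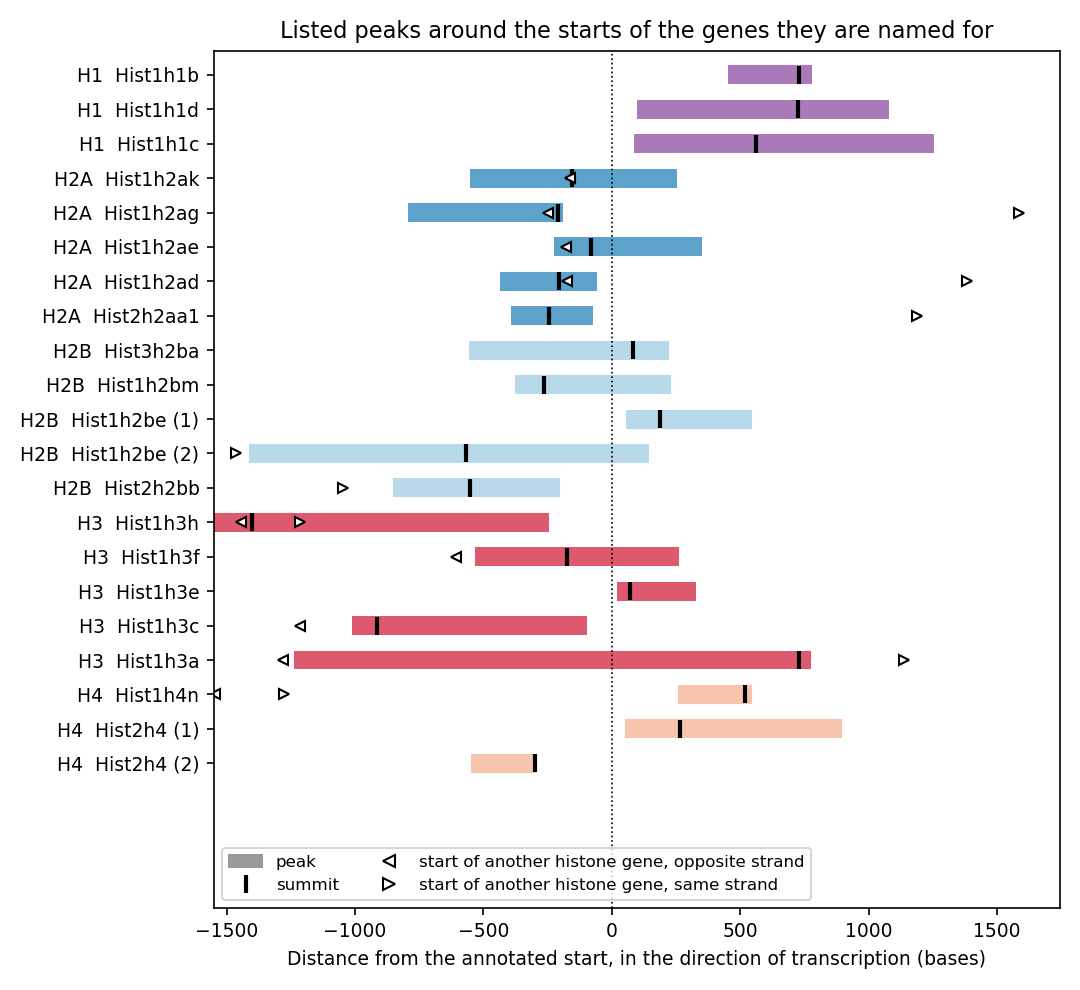
Position of each member peak (bars, with a black tick at the summit) relative to the annotated start of the gene it is named for (x axis, bases in the direction of transcription); triangles are starts of other histone genes. H1 peaks lie downstream of the start, and a start on the opposite strand lies beside the summit in the H2A rows Hist1h2ak, Hist1h2ag, Hist1h2ae and Hist1h2ad.

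The file gives each peak 1 gene name, and at the histone clusters that name often left out the gene under the peak. Of the 21 member peaks, 7 did not overlap the gene they were named for, and at 7 the nearest histone start to the summit was that of another gene. Of the 51 genes without a row of their own, 24 had a listed peak of another name over the gene or in the window from 1 kb upstream to 100 bases downstream of its start. For 13 of these the name was that of another histone gene, and for 11 it was a gene that is no histone gene. The remaining 27 genes had no listed peak of any name there.

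Counted by name, 19 of 67 protein-coding histone genes (28.4%, Wilson 95% interval 19.0 to 40.1) had a listed peak, against 21.1% of all protein-coding RefSeq genes. Counted by the start window, 31 of 62 (50%, interval 37.9 to 62.1) had one, against 21.0% of all protein-coding genes in the promoter table. The 31 genes shared 23 peaks and are not independent, so the interval is too narrow.

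The 8 peaks over or beside histone genes under other names included the steepest at any histone gene. A peak named Gm11335 (chr13:23530471-23531796) covered the whole of the H4 gene Hist1h4h, whose promoter is printed above. Its summit lay 360 bases downstream of the start of Hist1h4h. That peak had a pileup of 25.2 against a control background of 1.18, a fold of 12.0 (q = 2.26e-20), which ranked 34th of the 6395 peaks by fold. A peak named Gm24991 (chr13:23683621-23684789) lay over Hist1h2ac and Hist1h2bc, an H2A and an H2B gene, with 14.7 against 1 and a fold of 7.85. A peak named Gm44492 (chr3:96220457-96221870) lay over Hist2h2ac and Hist2h2be, with 18.1 against 1.65 and a fold of 7.2.

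The other 5 had folds between 3.45 and 5.59. They lay over Hist1h4m, Hist3h2a with Hist3h2bb, and Hist4h4, and upstream of Hist2h2ab and Hist2h3c1. The peak at Hist4h4, the lone gene of its cluster on chromosome 6, had a pileup of 13.9 against a control background of 3.30 and the lowest fold of the 5. Over the 29 peaks of any name the median fold was 4.95, the same as over the 21 members.

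Counted by gene span and start window together, 41 of 67 protein-coding histone genes (61.2%) had a listed peak, against 25.0% of all protein-coding genes. Median gene length was 492 bases for these histone genes and 17146 bases for all, and neighbouring histone genes share peaks. By histone type, pseudogenes included, some listed peak lay at 5 of 6 H1 genes, 11 of 20 H2A genes, 14 of 19 H2B genes, 7 of 12 H3 genes and 6 of 13 H4 genes. With the highest fold at each such gene, the median was 4.95 for H1, 6.01 for H2A, 5.75 for H2B, 5.23 for H3 and 3.90 for H4. The ranges overlapped, with 3.57 to 7.99 for H2A, 3.63 to 7.99 for H2B and 2.91 to 12.0 for H4. The H1 gene without one was Hist1h1t, which encodes a testis linker histone. H2B showed the widest gap between the ways of counting, with 4 genes named and 10 more under another name, 7 of them under a peak named for an H2A or H3 gene.

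**Figure D4:**
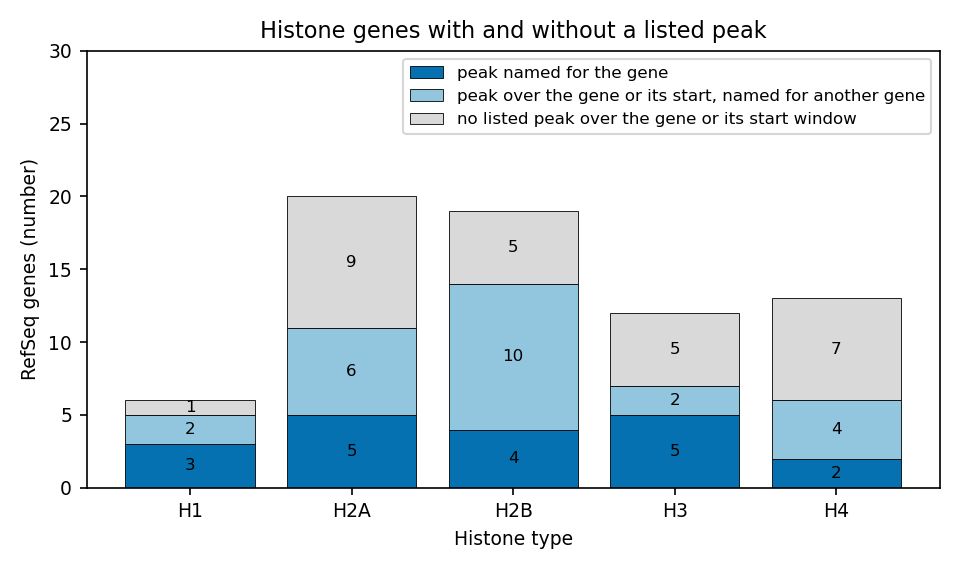
Number of RefSeq histone genes (y axis) by histone type, split into genes named for a listed peak (dark), genes with a listed peak of another name over the gene or its start window (light) and genes with neither (grey). The named genes number 3 for H1, 5 for H2A, 4 for H2B, 5 for H3 and 2 for H4, and a peak of another name adds 10 for H2B.

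The genes lie in 4 named clusters. The large Hist1 cluster on chromosome 13 falls into a first block (chr13:21715711-22043658, 24 genes) and a second block (chr13:23531044-23764412, 29 genes), with 3 outlying genes. In the second block 9 genes were named and 10 more lay under a peak of another name, with a median fold of 5.47 and a median pileup of 13.9 over the named peaks. In the first block 6 were named and 6 more lay under another name, with a median fold of 4.50 and a median pileup of 9.89. None of the 3 outlying genes had a listed peak; 2 of them are the testis genes Hist1h2ba and Hist1h2aa, and the third, Hist1h2al, is a pseudogene.

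The Hist2 cluster on chromosome 3 (chr3:96219885-96270192, 10 genes) had 3 named genes and 5 more under another name, with a median fold of 4.79. All 3 Hist3 genes on chromosome 11 and the single Hist4 gene on chromosome 6 had a listed peak, and Hist3h2ba was the only one of these 4 named. The difference between blocks was not tested, since the file holds no replicate values.

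Head-to-head starts at most 1 kb apart formed 11 histone pairs, 10 of an H2A with an H2B gene and 1 of an H2B with an H3 gene. The gap between the starts was 164 to 608 bases, with a median of 229. The widest, of Hist1h2bh with Hist1h3f, rests on the edge of the Hist1h3f gene, which has no start in the promoter table. The file's start lies 413 bases further into that gene, which would put this pair beyond 1 kb. Of the 10 pairs of an H2A with an H2B gene, 5 had a listed peak. The H2B genes Hist1h2bc and Hist2h2be had no annotated start and could not enter a pair. Each lay next to an H2A gene, Hist1h2ac and Hist2h2ac, and under the same listed peak as it, with folds of 7.85 and 7.2. A listed peak lay over the interval in 6 of 11 pairs (54.5%, Wilson 95% interval 28.0 to 78.7), against 38.6% of 748 such pairs of protein-coding genes. The 6 were Hist1h2bl with Hist1h2ai, Hist1h2ak with Hist1h2bn, Hist1h2ag with Hist1h2bj, Hist1h2bh with Hist1h3f, Hist1h2ae with Hist1h2bg and Hist1h2bf with Hist1h2ad.

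In 5 of these pairs the summit lay between the starts. The Hist1h2ak summit stood 9 bases upstream of the start of its H2B partner Hist1h2bn, in the shared stretch of 164 bases. The Hist1h2ag summit stood 38 bases upstream of the start of Hist1h2bj. The exception was the pair of Hist1h2bf and Hist1h2ad, whose summit lay 31 bases inside Hist1h2bf. In 5 of the 6 pairs 1 gene carried the name of the peak, and in none did both. The peak between Hist1h2bl and Hist1h2ai carried the name of Hist1h3h, which is not in the pair.

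The 5 pairs without a listed peak were Hist1h2an with Hist1h2bp, Hist1h2bq with Hist1h2ao, Hist1h2ap with Hist1h2br, Hist1h2ah with Hist1h2bk, and the testis pair Hist1h2ba with Hist1h2aa. The nearest listed peak was 1480 to 170533 bases away. The absence of a listed peak does not show a closed site, since a site open alike in both groups is not listed.

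CCAAT, the H1 box and the octamer core followed histone type. CCAAT stood in all 51 promoters of H1, H2A, H2B and H3 genes and in 3 of 12 H4 promoters (25%), against 37.4% of all 32851 RefSeq promoters. TATAAA stood in 35 of 63 histone promoters (55.6%), against 13.6% of all. By type it ranged from 40% in H3 to 66.7% in both H1 and H4, counted at any position in the window. The H1 box stood in 5 of 6 H1 promoters, including that of Hist1h1c, against 7.18% of all. The octamer core stood in 7 of 18 H2A and 7 of 17 H2B promoters, against 4.63% of all. The letters were searched on both strands and the motifs do not overlap one another in sequence, and head-to-head genes share part of their windows.

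A listed peak lay over the 300 bases searched in 26 of the 63 promoters. CCAAT was in 25 of these 26 and in 29 of the other 37, and TATAAA in 14 of 26 and 21 of 37. The octamer core was in 8 of 26 with a peak over the promoter and 7 of 37 without. The H1 box was in 1 of 26 and 8 of 37, and all 5 H1 gene promoters that held it had no peak over the window. H4 genes gave 1 of the 26 promoters and 11 of the 37, so these counts also differ in histone type, and they were not tested against each other. A match to a few letters is a description and not a bound site.

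**Figure D5:**
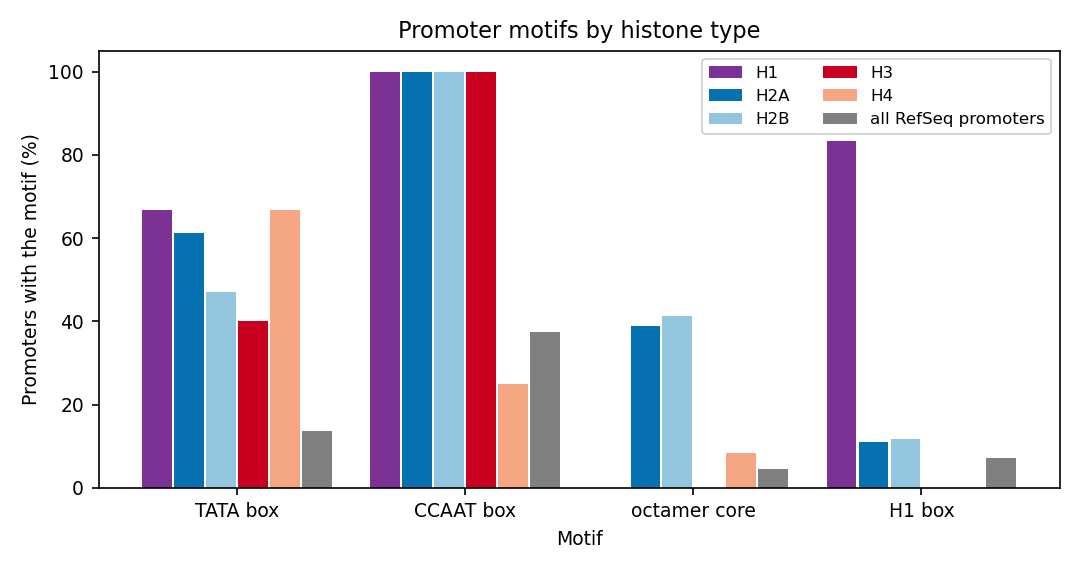
Share of promoters that hold each motif (y axis, percent; bars start at 0) for the 5 histone types and for all 32851 RefSeq promoters (grey). CCAAT is at 100% in every type except H4, at 25%, and the H1 box at 83.3% in H1.

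Some histone genes are near-identical copies of each other. Promoters were compared for identical runs, leaving out head-to-head genes whose windows overlap. Of the 62 genes with a promoter sequence, 12 shared a run of at least 50 bases with another histone promoter. Of these 12, 4 had a listed peak over the gene or its start window, against 32 of the other 50. The promoters of Hist1h2bq and Hist1h2br were identical over all 300 bases, and neither gene had a peak. Hist1h4m and Hist1h4n shared a run of 285 bases, and both had one. The sources used here do not give the treatment of reads that match several copies, and its part in these counts was not tested.

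Hist2h2aa1 and Hist2h2aa2, neighbouring H2A genes on chromosome 3, show such a pair. The listed peak lay at Hist2h2aa1 (chr3:96245247-96245546, plus strand), and Hist2h2aa2 (chr3:96240325-96240624, minus strand) had none. Capitals mark the motifs named above.
Hist2h2aa1: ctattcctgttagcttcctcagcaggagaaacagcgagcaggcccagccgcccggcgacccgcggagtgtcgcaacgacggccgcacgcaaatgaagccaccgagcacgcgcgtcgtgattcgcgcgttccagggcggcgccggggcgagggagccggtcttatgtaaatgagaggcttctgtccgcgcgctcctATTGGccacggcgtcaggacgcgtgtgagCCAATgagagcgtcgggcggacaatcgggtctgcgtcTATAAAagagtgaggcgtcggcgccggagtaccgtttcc
Hist2h2aa2: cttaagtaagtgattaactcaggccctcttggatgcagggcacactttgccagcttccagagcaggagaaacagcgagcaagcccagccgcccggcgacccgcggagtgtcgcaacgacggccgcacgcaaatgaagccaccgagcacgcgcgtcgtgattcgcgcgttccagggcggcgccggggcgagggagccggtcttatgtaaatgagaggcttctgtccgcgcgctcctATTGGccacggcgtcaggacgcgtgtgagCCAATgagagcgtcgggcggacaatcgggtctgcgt
The sequences share an unbroken run of 219 bases. It holds CCAAT on both strands, and TATAAA follows in the window of Hist2h2aa1 only, because the annotated starts are offset.

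Genes that act on histone mRNA or histone protein were counted by name, beside 21.1% of all protein-coding genes. Of 20 genes for histone transcription and 3′ end processing, 8 (40%) had a listed peak, with a median fold of 4.90. Slbp, which binds the stem loop of histone mRNA, had a pileup of 22.1 against a control background of 4.96, a fold of 3.87. Pou2f1, which encodes the octamer-binding factor Oct-1, had 28.3 against 5.90, a fold of 4.24. Ncbp2 and Ncbp1, the cap-binding complex, had folds of 7.38 and 6.25, and Cstf2 and Srrt, which act in 3′ end formation and with the cap, had 5.59 and 5.16. Npat and Hinfp, transcription regulators of histone genes, had no listed peak.

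Of 23 histone chaperone and nucleosome assembly genes, 11 (47.8%) were listed, with a median fold of 4.76. Nasp, a carrier of H3 and H4, had a pileup of 16.7 against a control background of 3, a fold of 4.42. Rbbp4 and Rbbp7, histone-binding subunits of several chromatin complexes, had folds of 5.68 and 6.72, and Nap1l4, a carrier of H2A and H2B, had 5.69. Npm1 had 5.52 and Tonsl 4.76.

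Of 11 replication-independent histone variant genes, 4 (36.4%) were listed. H2afj, an H2A variant, had a pileup of 16.7 against a control background of 1.18, a fold of 8.11, which is above that of every member peak. H3f3b and H3f3a, which both encode the replacement histone of H3, had folds of 3.94 and 4.03, and H2afv, an H2A.Z gene, had 4.38.

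Of 33 genes for DNA replication and S phase, 9 (27.3%) were listed, with a median fold of 4.95. Pcna, the sliding clamp of the replication fork, had a pileup of 30.8 against a control background of 3, a fold of 7.95. Mcm7 and Mcm5, subunits of the replicative helicase, had folds of 6.65 and 5.51, and Rrm2, which helps make deoxynucleotides, had 6.22. E2f2 and Ccne1, which drive entry into S phase, had 4.13 and 4.28. Counted by name, housekeeping genes were listed at 11 of 16 (68.8%), a higher share than in these 4 lists, with a median fold of 4.07. By the start window, 6 of 16 housekeeping genes and 11 of 23 chaperone genes had a listed peak. There, a gene absent from the promoter table counted as having none. By the file's own starts, a peak of each of the 11 housekeeping genes lay -846 to 91 bases away, inside that window. The order of the lists by the start window is therefore not settled. No list was tested against another.

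Cell type markers were counted by name, where 21.1% of all protein-coding genes have a listed peak. The list holds only sites higher on the anti-IFNAR1 side, so these counts cannot check which cells were sorted. Of 13 CD4 T and Tfh cell markers 9 had one, namely Cd3d, Maf, Cd5, Tcf7, Bcl6, Pdcd1, Cd4, Tox and Cd3e, and no peak was named for Cxcr5, which encodes a marker of the sort, or for Icos, Il21 and Trac. No peak was named for the 8 B cell markers, nor for the 4 markers of CD8 T and NK cells, numbers too small to set against that share. Of 6 myeloid markers, Cebpa had a pileup of 20.6 against a control background of 3 and Cd14 had 3.67 against 0.132, and their part in the histone result was not tested. A list of sites that differ does not hold every open site, so a marker without a row is not shown to be closed.

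The firmness of the member calls varied with the control fragments behind them. At q of at most 0.01, 18 of the 21 member peaks remained (85.7%), against 82.4% of all peaks. A one-sided exact conditional binomial test, which counts noise on both sides, was held to the largest p of the list, 6.90e-05. With the caller's background window it kept 14 member peaks (66.7%), against 68.7% of all. At the site alone it kept at least 6 (28.6%), against 20.9% of all, since control fragments that are not known were taken at the highest value possible. They were Hist1h1c, Hist1h2ak, Hist2h2aa1, the taller Hist1h2be peak, Hist2h2bb and Hist1h3c. With 0 control fragments at the site, 39 anti-IFNAR1 fragments are needed to pass, and 14 member peaks had that many. A pileup of at least 20 was reached by Hist1h1c, Hist1h2be and Hist2h2bb (14.3%), against 12.5% of all peaks.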

How the data were processed

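The sources used here hold 1 peak list of the whole series and no values per sample. The submitters' processing notes name build mm10 and the tools MACS2 (2.1.0.20150420), BWA (0.7.9a), bedtools, DESeq2 and DiffBind (2.0.7), with no role or order. Per the file headers, the authors deposited for each peak a signal (pileup at the summit), a ratio (fold enrichment) and 2 columns with damaged headers, read as −log10 p and −log10 q. Recomputing the first of these from a Poisson model gave −log10 p within 3.92e-05 of the deposited values. Peak names state IFN against Ig, which gave the direction. The libraries pooled on each side are not named, and depth per sample is unknown. Handling of duplicates and of transposase cut sites is not given.

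The control background was computed from the deposited fold with the caller's pseudocount of 1. Gene positions, starts and promoters came from RefSeq GRCm38.p6, and 5 histone genes without a start in the table or file entered span counts only. Hist1h3a, Hist1h3f and Hist2h4 had no start in the promoter table, so the edge of the gene on the file's strand was used. The file's starts for member genes differed from RefSeq's by 0 to 413 bases (median 15). Peak bounds are as the file gives them. Intervals (Wilson for shares, exact for ratios) cover counting error only, and PCR copies are not independent molecules. Of the steps run (Python 3.11.15, scipy 1.17.1), only the exact test was tried on simulated data. Every histone gene with a row is named, and up to 6 listed genes per related list by smallest q. The members and lists were chosen with earlier results of these data known. Alternatives are given in the closing section.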

Additional observations from a re-analysis of the deposited data

How the results depend on the processing

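Of 42 values recomputed under alternatives for 11 results, 29 stayed within 1.5 times of the reported count or within the reported interval, and 13 moved. With a pileup of at least 20, the list held 3 histone genes, 3 histone peaks, 100% of them at the TSS, and 0 of the head-to-head pairs. With its background window as the caller set it, the exact test left 2 pairs. The exact test at the site alone left 6 genes, 6 peaks, a median fold of 5.98, a TSS share of 100% and 1 pair. Counting any listed peak from 1 kb upstream to 100 bases downstream of a start gave 34 histone genes, against 19 by name, and 6 housekeeping genes, against 11 by name. Counting any listed peak over the gene span gave 31 histone genes, an alternative chosen after seeing the data. Fewer peaks or another unit of counting is what these settings change by construction. In the housekeeping count, a gene absent from the promoter table also counted as having no peak in the window. By the file's own starts, a peak of each of the 11 lay -846 to 91 bases away, inside the window. How much of the fall from 11 to 6 came from genes absent from the promoter table was not tested. No paired analysis was possible because the list holds no column of a sample. Leaving out a replicate was not possible for the same reason. Control backgrounds of at most 5.66 fragments limit the precision of single folds.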
